A study of Mus musculus with 3 samples.

Results

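The variable (V) segments of the kappa and lambda immunoglobulin light chains were examined in 3 lymphomas from the pBIC2 mouse. The members were all gene rows named Igkv or Iglv with at least 1 raw count in any tumour, so they were chosen by the counts described here. Of 144 such V rows among 37646 genes, 118 had a count (115 kappa and 3 lambda). They comprise 93 of the 102 rows listed as V genes and 25 of the 42 rows listed as V pseudogenes. The values below therefore describe the members, and no test was made on them.

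The tumours form 1 group of 3 libraries, named here tumours 1, 2 and 3. All came from C57BL/6 mice with the genotype p53F/F, Blimp1F/F, IKK2castopF/stopF, Cg1Cre/+ and Eu-hBCL2tg/+, where F marks a floxed allele and castop a constitutively active kinase allele behind a floxed stop. Trp53, the p53 tumour suppressor gene, and Prdm1, which encodes the plasma cell regulator Blimp1, are thus open to deletion by a Cre expressed from the Cγ1 locus. The same Cre switches on IKK2, the kinase that activates NF-κB, and a human BCL2 transgene under the Eµ enhancer counters cell death. The labels name the model ABC-DLBCL, a diffuse large B cell lymphoma of the activated kind. Spleens came from moribund mice, and live B220+GFP+ cells were sorted from them. No source used here says that the libraries came from separate mice, and each tumour has 1 library. Differences between tumours were therefore not separated from differences between library preparations. Germinal centre B cells, the control population of the study, were not analysed here.

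A mouse B cell builds its light chain by joining 1 V segment to 1 J segment upstream of a constant (C) gene. Most mouse B cells use the kappa locus on chromosome 6, which holds many V segments in both orientations, and a minority use the small lambda locus on chromosome 16. In a clonal lymphoma the cells descend from a single rearranged B cell, so 1 V segment can make up most of the light chain V transcripts. Unrearranged and nonproductive alleles can also be transcribed, and V counts in bulk RNA do not show which segments were joined in the same cell.

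A single V segment held most light chain V counts in each tumour, and it was another segment each time. The leading segments were Igkv14-126 in tumour 1, Iglv1 in tumour 2 and Igkv4-91 in tumour 3. Tumours 1 and 2 also had a large second segment, Igkv4-68 in tumour 1 and Igkv4-73 in tumour 2. The sequences of these 5 segments are shown because related segments can share reads. Each is the last 285 bases of the V exon, 5′ to 3′ on the strand of the gene, from the GENCODE M21 transcripts of the mm10 build. Capitals mark bases inside a stretch of 50 bases (the read length) that also occurs in a transcript of another gene.
Igkv14-126: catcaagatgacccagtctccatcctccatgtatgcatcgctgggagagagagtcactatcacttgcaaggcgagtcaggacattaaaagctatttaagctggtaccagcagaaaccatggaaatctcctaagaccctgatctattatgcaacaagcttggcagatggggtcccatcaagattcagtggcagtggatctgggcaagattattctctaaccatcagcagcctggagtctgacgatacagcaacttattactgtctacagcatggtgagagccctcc
Iglv1: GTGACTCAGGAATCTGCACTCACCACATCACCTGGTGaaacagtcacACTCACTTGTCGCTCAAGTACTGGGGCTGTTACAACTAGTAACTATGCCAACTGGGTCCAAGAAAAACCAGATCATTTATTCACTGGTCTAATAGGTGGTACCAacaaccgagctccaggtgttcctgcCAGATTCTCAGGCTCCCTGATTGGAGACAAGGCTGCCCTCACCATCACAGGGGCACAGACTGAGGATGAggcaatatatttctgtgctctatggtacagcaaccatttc
Igkv4-91: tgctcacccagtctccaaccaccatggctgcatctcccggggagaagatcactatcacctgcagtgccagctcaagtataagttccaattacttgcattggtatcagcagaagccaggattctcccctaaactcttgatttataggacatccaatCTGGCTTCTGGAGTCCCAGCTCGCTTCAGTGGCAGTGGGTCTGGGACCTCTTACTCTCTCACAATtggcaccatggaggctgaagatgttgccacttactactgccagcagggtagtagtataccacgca
Igkv4-68: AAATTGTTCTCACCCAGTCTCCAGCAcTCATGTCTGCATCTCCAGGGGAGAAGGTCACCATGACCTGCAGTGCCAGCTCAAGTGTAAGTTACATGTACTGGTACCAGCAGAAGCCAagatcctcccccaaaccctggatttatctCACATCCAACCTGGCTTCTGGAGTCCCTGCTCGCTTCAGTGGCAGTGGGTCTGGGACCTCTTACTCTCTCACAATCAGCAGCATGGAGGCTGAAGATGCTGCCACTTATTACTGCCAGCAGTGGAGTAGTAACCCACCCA
Igkv4-73: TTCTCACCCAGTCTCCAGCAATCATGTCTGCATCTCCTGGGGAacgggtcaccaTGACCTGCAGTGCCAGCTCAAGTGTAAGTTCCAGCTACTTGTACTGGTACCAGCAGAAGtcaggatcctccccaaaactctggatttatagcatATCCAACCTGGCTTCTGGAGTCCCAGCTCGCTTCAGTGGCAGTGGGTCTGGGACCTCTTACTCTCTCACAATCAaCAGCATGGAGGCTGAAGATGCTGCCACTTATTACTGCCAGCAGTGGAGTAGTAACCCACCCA

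The stretches lie at chr6:67896358-67896642 (plus strand, Igkv14-126), chr16:19085017-19085301 (minus, Iglv1), chr6:68768555-68768839 (minus, Igkv4-91), chr6:69304834-69305118 (minus, Igkv4-68) and chr6:69197583-69197867 (minus, Igkv4-73). All 5 are exonic, in the second of 2 exons. No base of Igkv14-126 is in capitals, so any 50-base read from its annotated exons could be placed uniquely among the 141767 transcripts searched. In Igkv4-91, 65 of the 285 bases are in capitals, and 94.8% of the 50-base windows over both exons occur in no other gene. Iglv1 has 210 bases in capitals, and its 76 shared windows of 342 all occur in Iglv2, whose V exon is 97.0% identical. Igkv4-68 has 255 bases in capitals and 51.3% unique windows, with 105 of its 345 windows also in Igkv4-59. Igkv4-73 has 238 bases in capitals and 79.0% unique windows. The V exon of Igkv4-91 is 85.1% identical to that of Igkv4-68 and 86.4% identical to that of Igkv4-73. The latter pair are 92.6% identical to each other. Over all 118 members the median share of unique windows was 80.6%, 30 members were fully unique and 18 were below 50%. The Igkv4 family, the largest kappa family with 33 rows in the tables, had a median of 71.9% and 2 fully unique members of the 27 with a count. No source used here states how reads that fit several segments were counted, so counts of shared segments are uncertain.

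The libraries held 15576975 to 17014022 gene counts. Light chain V segments took 39369, 25451 and 20284 of them in tumours 1, 2 and 3, which is 0.253%, 0.154% and 0.119% of the total. After scaling for library size and composition (CPM, counts scaled to a common library size with TMM factors) the summed level was 2609, 1560 and 1143 CPM. All 10 B cell markers exceeded 10 CPM in every tumour. Genes listed as markers of other cells also had counts, and their sums differed between tumours. The summed level of 10 T cell genes was 11.9, 43.8 and 900 CPM, and that of 8 macrophage genes 35.8, 402 and 179 CPM. The 8 plasma cell genes summed to 300, 889 and 216 CPM and the 6 neutrophil genes to 0.199, 16.4 and 41.0 CPM. A single plasma cell list gene, Ly6k, supplied 741 of the 889 CPM in tumour 2, and without it the list summed to 299, 148 and 215 CPM, lowest in tumour 2. Most of that came from Derl3 (130, 31.0 and 6.14 CPM), Xbp1 (90.0, 73.3 and 113) and Slamf7 (71.0, 25.2 and 75.1). Sdc1 had only 3, 7 and 9 counts and Tnfrsf17 3, 0 and 0. Whether plasma cells were present was not tested. No member of these lists was at 0 in all tumours. In bulk RNA, fewer cells of a type and less RNA per cell cannot be told apart. The part of other cells in the V segment values was not tested.

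Igkv14-126 (chr6:67896172-67896642) had 34987 counts in tumour 1, 46 in tumour 2 and 28 in tumour 3. These counts made up 88.9% of the light chain V counts of tumour 1 (95% Wilson interval 88.6 to 89.2%), 0.181% of those of tumour 2 and 0.138% of those of tumour 3. Iglv1 (chr16:19085017-19085500) had 72, 19576 and 132 counts. It held 76.9% of the V counts in tumour 2 (76.4 to 77.4%), against 0.183% in tumour 1 and 0.651% in tumour 3. Igkv4-91 (chr6:68768555-68769103) had 14, 158 and 17626 counts, and its share was 86.9% in tumour 3 (86.4 to 87.4%), 0.0356% in tumour 1 and 0.621% in tumour 2. Each leading segment thus held under 1% of the V counts in the tumours it did not lead. The mean share of the leading segment was 84.2% ± 6.41 (SD, n = 3), and its level was 2319, 1200 and 993 CPM. Intervals cover counting error only. Counts per kilobase of exon allow levels of different segments to be compared. They gave these leading segments 89.6% of the summed value in tumour 1 and 75.5% in tumour 2.

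**Figure D1:**
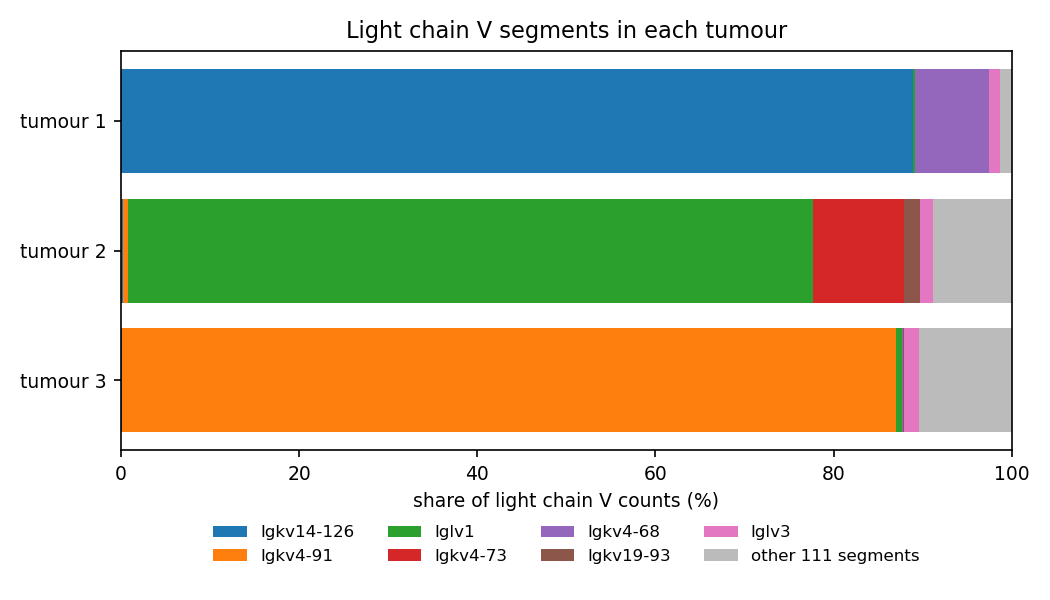
Share of light chain V counts (%, x axis) held by each segment with at least 1% in any tumour, stacked by tumour (y axis), with the other 111 members in grey. The leading segment takes 88.9%, 76.9% and 86.9% of the bar in tumours 1, 2 and 3 and is another segment each time.

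The tumours differed in what came after the leading segment. In tumour 1 the second segment was Igkv4-68 (chr6:69304834-69305405), with 3280 counts or 8.33% (8.06 to 8.61%), against 14 counts in tumour 2 and 6 in tumour 3. In tumour 2 it was Igkv4-73 (chr6:69197583-69198116), with 2580 counts or 10.1% (9.77 to 10.5%), against 4 counts in tumour 1 and 4 in tumour 3. Tumour 3 had no second segment of this size: its next was Iglv3, with 327 counts or 1.61% (1.45 to 1.79%), and Iglv3 was as abundant in the other tumours. The leading segment exceeded the second 10.7-fold in tumour 1, 7.59-fold in tumour 2 and 53.9-fold in tumour 3. Only 2 further segments reached 1% of any tumour, Iglv3 in all 3 tumours and Igkv19-93 in tumour 2 alone (24, 458 and 40 counts).

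Igkv4-73 is annotated as a pseudogene with no coding sequence. Read from the start codon of its transcript, the annotated sequence gave 119 codons with 0 stop codons, the same length as Igkv4-91. By contrast, the transcript of the pseudogene Igkv14-126-1 has a stop at codon 65. The reads of the tumours themselves were not used for this, so it says nothing of the rearranged sequence. Because of Igkv4-73, pseudogene rows held 11.4% of the V counts of tumour 2, against 0.353% in tumour 1 and 1.32% in tumour 3.

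The kappa share followed the leading segment. Kappa segments held 98.6% of the V counts in tumour 1 (38809 of 39369), 21.5% in tumour 2 (5465 of 25451) and 97.7% in tumour 3 (19808 of 20284). Igkv4-73 alone made up a large part of the kappa counts of tumour 2, and without pseudogene rows its kappa share was 11.3%. The constant genes gave the same order with a narrower span: Igkc, the only kappa constant gene, held 90.5%, 24.8% and 83.5% of the constant gene counts. The J segments gave 91.0%, 18.7% and 81.1% kappa. Tumours 1 and 3 therefore had more lambda by constant genes and J segments than by V segments.

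The genes of the lambda locus differed among themselves in how they varied between tumours. Iglv1 lies upstream of the J and constant genes Iglj3-Iglc3 and Iglj1-Iglc1, and Iglv2 and Iglv3 lie upstream of Iglc2. Iglc1 moved with Iglv1: it had 888, 38015 and 1779 counts, which is 58.9, 2330 and 100 CPM. Iglj1 did the same with 40, 1400 and 59 counts. Iglc2 was at 375, 371 and 239 CPM and Iglc3 at 147, 126 and 220 CPM, a span between the highest and lowest tumour of 1.57-fold and 1.75-fold, against 39.6-fold for Iglc1. Iglv3 was also nearly level, with 482, 356 and 327 counts or 31.9, 21.8 and 18.4 CPM, a 1.73-fold span. Iglv2 had 6, 54 and 17 counts, and since it shares 76 of its 317 windows with Iglv1, the count in tumour 2 is uncertain. Iglc4, at 27, 40 and 33 counts, stayed low in every tumour. Set against Iglc1 alone, Igkc took 98.9%, 28.6% and 96.6%, close to the V shares in tumours 1 and 3 and above the V share in tumour 2.

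In the lambda locus, V counts per constant gene count differed between genes and tumours. Kappa V segments had 0.465, 0.358 and 0.394 counts for each Igkc count, a mean of 0.406 ± 0.0543 (SD, n = 3). Iglv1 had 0.515 counts for each Iglc1 count in tumour 2, where it leads, but 0.0811 in tumour 1 and 0.0742 in tumour 3. Iglv2 and Iglv3 together had 0.0620, 0.0505 and 0.0422 counts for each count of Iglc2 and Iglc3. The Iglc2 and Iglc3 counts thus came with few Iglv2 and Iglv3 counts in every tumour. The Iglc1 counts came with few Iglv1 counts in tumours 1 and 3 only. The ratio for Iglc2 and Iglc3 leaves out Iglv1, which also lies upstream of Iglc3. Iglc2 and Iglc3 share 43 of their windows of 50 bases, Iglc3 shares 47 with 2010309G21Rik, a gene that overlaps the Iglv1 row and had 4, 20 and 46 counts, and the Iglc2 row spans a J segment that has no row of its own.

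**Figure D2:**
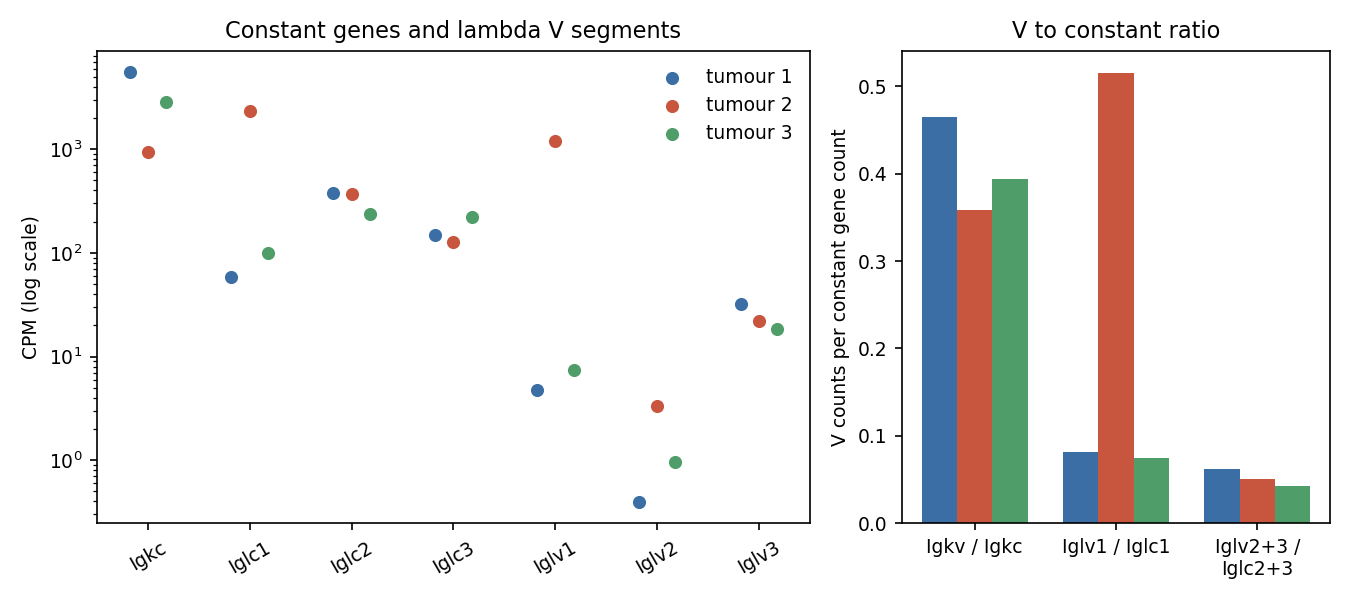
Left, level (CPM, log scale) of the constant genes and lambda V segments in each tumour, 1 point per library. Right, V counts per constant gene count (bars from 0). Iglc1 and Iglv1 stand far higher in tumour 2, whereas Iglc2, Iglc3 and Iglv3 differ by less than 2-fold between tumours.

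The J segments differed between the kappa-led tumours. In tumour 1, Igkj4 held 61.7% and Igkj2 21.5% of all light chain J counts (1577 and 549 counts). In tumour 3, Igkj2 held 53.4% and Igkj4 6.13% (1134 and 130 counts). Igkj1 had 6, 23 and 182 counts, Igkj3 49, 3 and 77, and Igkj5 144, 73 and 199. Tumour 2 was led by Iglj1 with 72.6% of the J counts, and Igkj4 with 198 counts led its kappa J segments. Iglj3 had 179, 156 and 330 counts, a narrow range like that of Iglc3. Iglj3p had 11, 13 and 11 counts and Iglj4 had 0 in every tumour. J exons of 38 to 43 bases are shorter than a read, so these counts come from reads that reach beyond the exon, and they are small beside the V counts.

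Members fall into 23 families in the tables, by the number after Igkv or Iglv, of which 22 had a count and 19 had one in every tumour. With the leading segment set aside, the Igkv4 family was the largest in all 3 tumours, at 76.3% of the remaining V counts in tumour 1, 50.04% in tumour 2 and 18.1% in tumour 3. In tumours 1 and 2 that was mostly 1 segment each, Igkv4-68 and Igkv4-73. In tumour 3 it was spread over Igkv4-58 (0, 7 and 123 counts), Igkv4-59 (0, 14 and 117), Igkv4-57-1 (2, 8 and 48), Igkv4-61 (2, 0 and 45) and the pseudogene Igkv4-77 (4, 17 and 44). These are relatives of the leading Igkv4-91. The V exon of Igkv4-58 is 85.8% identical to it and shares 16 of 309 windows with it, and that of Igkv4-59 is 84.1% identical and shares none. Igkv4 rows had a lower median share of unique windows than the other kappa families (71.9% against 84.7%), and misassigned reads among them were not tested.

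Other families had different weights in the 3 tumours. Igkv1 made up 1.16%, 7.40% and 15.0% of the V counts outside the leading segment, led by Igkv1-117 in tumour 2 (3, 213 and 80 counts) and Igkv1-88 in tumour 3 (5, 100 and 165). Igkv2 made up 0.274%, 5.92% and 10.8%, mostly from the pseudogene Igkv2-107 (8, 204 and 161 counts). Igkv12 made up 1.26%, 2.88% and 9.56%, led by Igkv12-89 (27, 55 and 152 counts). Igkv6 made up 1.004%, 1.19% and 7.60%, led in tumour 3 by Igkv6-32 (2, 12 and 150 counts). These 4 families were highest by share in tumour 3 and lowest in tumour 1, but Igkv4-68 and Igkv4-73 enlarge the denominators of tumours 1 and 2. By CPM, Igkv1 (3.38, 26.7 and 22.4) and Igkv2 (0.795, 21.3 and 16.2) were highest in tumour 2. Igkv19, a family with a single segment, made up 0.548%, 7.80% and 1.505%. Igkv14, the family of the tumour 1 leader, still made up 5.36% in tumour 2 through Igkv14-111 (5, 250 and 74 counts). Igkv14-111 has the V exon nearest to Igkv14-126, at 90.9% identity, and it had 5 counts in the tumour where Igkv14-126 had 34987.

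The remaining families with at least 10 counts in any tumour were small. Their highest segments were Igkv10-96 (11, 64 and 30 counts), Igkv9-124 (33, 55 and 22), Igkv5-39 (8, 29 and 45), Igkv15-103 (7, 41 and 18) and Igkv16-104 (6, 12 and 17). Igkv17-127 was highest in tumour 1 (51, 18 and 22 counts). In other families the highest segment came mostly from 1 tumour. It was taken by its largest count in any 1 tumour, which favours segments confined to 1 tumour. Igkv11-125 had 0, 98 and 1 counts, Igkv7-33 had 0, 38 and 0, and Igkv3-2 had 1, 34 and 3, all highest in tumour 2. Igkv8-24 with 0, 6 and 36 counts and Igkv13-85 with 0, 1 and 22 were highest in tumour 3. The Igkv8 family as a whole was highest in tumour 2 (0.862, 6.25 and 4.85 CPM), led there by Igkv8-30 (1, 29 and 16 counts). The single Igkv18 segment had 1 count in all. By CPM outside the leading segments, 3 families were highest in tumour 1 (Igkv4, Igkv17 and Iglv3), 14 in tumour 2 and 5 in tumour 3. A count of 0 allows up to 3 counts, which is 0.199, 0.184 and 0.169 CPM.

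Minor segments were fewer and rarer in tumour 1, although it had the most V counts. Segments with a count numbered 70, 103 and 97 in tumours 1, 2 and 3, and those with at least 10 counts 19, 54 and 46. Brought to the same 20284 V counts by exact rarefaction (the mean number found in a random subsample), tumours 1, 2 and 3 had 58.6, 101 and 97.0 segments. Outside the leading and second segments there were 1102, 3295 and 2331 counts, or 73.0, 202 and 131 CPM, and 482 of the 1102 in tumour 1 were Iglv3. At an equal 1102 counts this tail held 68.0, 86.2 and 81.8 segments. Of the 118 members, 56 had a count in all tumours, 30 in tumours 2 and 3 but not 1, and 4, 12 and 6 in tumour 1, 2 or 3 alone. For scale, 19749, 20847 and 21844 of the 25463 genes with a count in any tumour had one in tumours 1, 2 and 3. Their overlap was not computed, so whether the sharing is particular to V segments was not tested. Many member rows were at the limit of detection: the highest count was 1 in 10 rows, 2 or 3 in 16 and under 10 in 54. The macrophage genes, like the tail, had their highest sum in tumour 2 (also without Cd68, the most abundant of them, at 11.0, 77.5 and 17.2 CPM). The T cell and neutrophil genes were highest in tumour 3. The plasma cell genes were highest in tumour 2 with Ly6k and lowest there without it. The 6 genes listed for germinal centre B cells were also highest in tumour 2 (3.65, 99.7 and 51.0 CPM). Without Rgs13, the most abundant of them, they were highest in tumour 3 (3.58, 9.62 and 48.0 CPM). The 6 B-1 cell genes summed to 1072, 1197 and 1092 CPM and the 5 follicular B cell genes to 734, 463 and 830 CPM. The part of any of these cells in the tail was not tested.

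Diversity depended on which layer was measured. The effective number of segments, the exponential of the Shannon entropy (the number of equally abundant segments that would be as diverse), was 1.62, 3.18 and 2.36, a mean of 2.39 ± 0.777 (SD, n = 3). With the leading segment removed it was 3.35, 14.4 and 36.6, so tumour 3 passed tumour 2. With the second segment removed too it was 13.0, 34.1 and 39.7. Tumour 1 was the least diverse of the 3 at each layer. Over families the effective number was 1.56, 2.70 and 1.83. For scale, heavy chain V segments gave 3.29, 4.50 and 1.89, with Ighv11-2 leading tumour 1 at 58.6%, Ighv14-3 leading tumour 2 at 60.2% and Ighv12-3 leading tumour 3 at 90.5%. Tumour 3 was thus the least diverse for the heavy chain but not for the light chain. As background, Ighv11-2 with Igkv14-126 and Ighv12-3 with Igkv4-91 are combinations known from B-1 cells that bind phosphatidylcholine. Whether the heavy and light segments here share a cell was not tested.

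**Figure D3:**
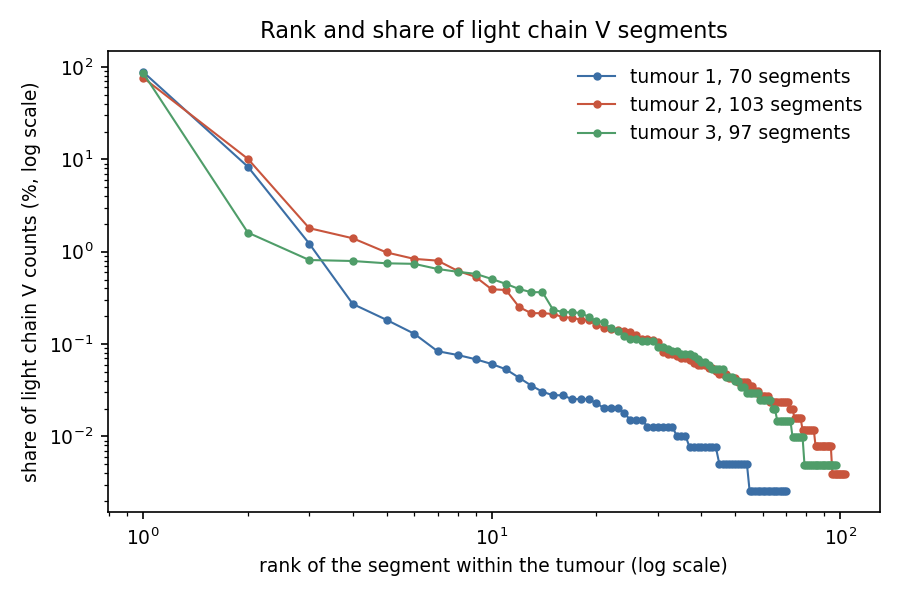
Share of light chain V counts (%, log scale) against the rank of the segment in its tumour (log scale), 1 line per library. After the leading segment, tumour 1 falls below the others from rank 4 on, and tumour 3 lacks the step at rank 2 that tumours 1 and 2 show.

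The more abundant segments differed widely between tumours. Of the 118 members, 19 reached 5 CPM in any tumour, the level from which fold differences were counted. The lowest inside that limit was Igkv1-110 (5.13 CPM) and the highest outside it Igkv12-44 (4.17 CPM). On the log2 CPM scale with a prior count of 2, 11 of the 19 were at least 4-fold above both other tumours in 1 tumour (57.9%), against 6.88% of all 10650 genes at 5 CPM or more in any tumour. In tumour 1 they were Igkv14-126, Igkv4-68 and Igkv14-126-1, or 3 of 19, against 1.55% of all genes. In tumour 2 they were Iglv1, Igkv4-73, Igkv19-93 and Igkv11-125, or 4 of 19, against 1.85%. In tumour 3 they were Igkv4-91, Igkv6-32, Igkv4-58 and Igkv4-59, or 4 of 19, against 3.48%. A segment that is high in 1 tumour reaches 5 CPM through that tumour, so these shares describe the choice of members as well as the tumours. Between tumours, log2 CPM had a median SD of 2.78 over the 19 segments and of 0.41 over all genes.

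The order of the minor segments was compared between the 3 tumours. Over the 58 members with at least 10 counts in any tumour that neither led nor came second in any of them, Spearman's rho of the counts was 0.35 between tumours 1 and 2, 0.18 between 1 and 3 and 0.26 between 2 and 3. Igkv1-135 was among the few at a near-equal level, with 30, 36 and 35 counts. These correlations are across segments that share depth and locus within a library, and they are given as a description. Members could enter through any 1 tumour, which can lower rho. Of the 64 members with at least 10 counts in any tumour, 15 reached that count in all 3. In tumour 1, 2 or 3 alone, 1, 14 and 9 did. Entry through any 1 tumour can lower the shared number too. The same counts over all genes were not made, so whether this is particular to V segments was not tested. Counts in tumour 1 were also low, with a median of 3.5 over its detected segments outside the leading and second.

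The kappa segments were also laid out by their position. Igkv14-126 lies 2825.9 kb from Igkj1, near the far end of the locus, Igkv4-91 1953.5 kb, Igkv4-73 1524.4 kb and Igkv4-68 1417.2 kb from it. Igkv14-126 is on the strand of the J segments, and the other 3 are on the opposite strand. Of the 10 annotated neighbours of Igkv14-126 (5 on each side), 3 had their highest level in tumour 1, against 14 of all 118 members (11.9%). Of these 3, Igkv9-128 had 1 count there and 0 elsewhere. The nearest of the others is the pseudogene Igkv14-126-1, 20.2 kb away, with 107, 11 and 0 counts. Its V exon is 70.9% identical to that of Igkv14-126 and it shares no 50-base window with it. Igkv17-127, 35.0 kb upstream, had 51, 18 and 22 counts. On the other side Igkv11-125, 17.4 kb away, had 0 counts in tumour 1 and 98 in tumour 2.

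Neighbours of Igkv4-91 gave a mixed picture as well. Of the 9 with a count, 4 were highest in tumour 3, where 40 of all 118 members (33.9%) were highest. Among the 4 were Igkv12-89 and Igkv1-88, which lie 66.3 and 93.7 kb from it toward the J segments. On the far side, Igkv19-93 at 32.3 kb was highest in tumour 2. Igkv4-68 and Igkv4-73 lie 107 kb apart, and in the tumour where the other was second they had 14 and 4 counts. Outside the leading and second segments, the part of the locus from 2400 to 3200 kb held 47.4% of the kappa counts in tumour 1, 35.1% in tumour 2 and 24.2% in tumour 3. Segments on the strand of the J segments held 55.4%, 48.2% and 37.5%. Igkv14-126-1 alone gave 107 of the 542 counts behind the tumour 1 values. Without it, chosen after seeing the data, the far part of the locus held 34.5%, 34.8% and 24.2% and the strand of the J segments 44.4%, 47.98% and 37.5%, so tumour 1 was no longer above tumour 2.

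**Figure D4:**
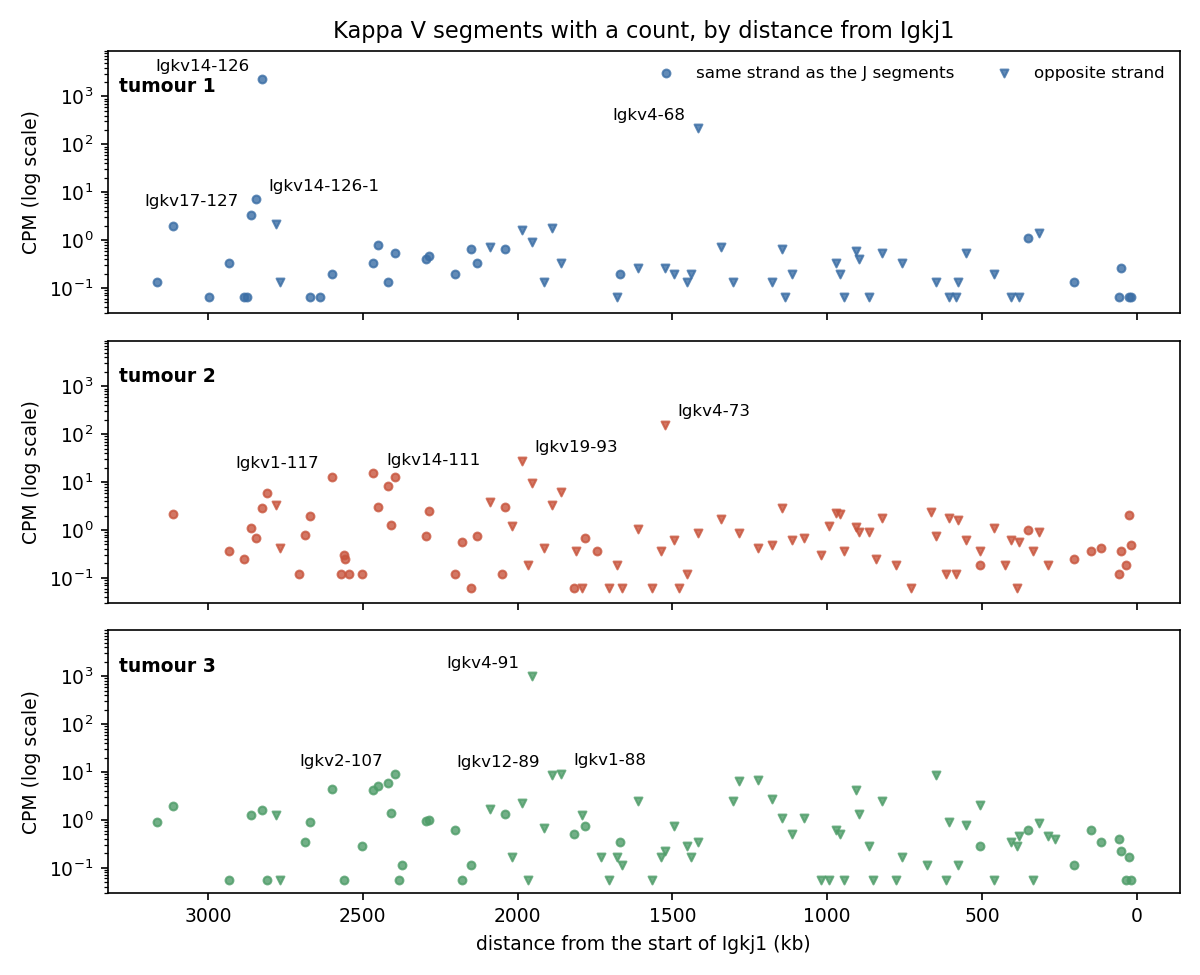
Level (CPM, log scale) of each kappa V segment with a count, by distance from Igkj1 (kb), in 1 panel per tumour, with the 4 highest named. Igkv14-126 and Igkv4-68 in tumour 1, Igkv4-73 in tumour 2 and Igkv4-91 in tumour 3 stand above a floor of low segments that covers the locus in all tumours.

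Other genes of the light chain pathway were set beside the V segments. Of 27 genes listed, 26 were in the tables and 21 reached 5 CPM in any tumour. Of these 21, 2 were at least 4-fold above both other tumours in 1 tumour, near the 6.88% of all genes. The 2 were Iglc1 in tumour 2 and Vpreb3, a gene of the surrogate light chain family, in tumour 1 (66.5, 9.01 and 2.25 CPM). Igkc spanned 5.92-fold between its highest and lowest tumour but was not called, since the rule needs a gap to both other tumours. Rag1 and Rag2 form the recombinase that joins V and J segments. Rag1 had 0, 5 and 5 counts, and Rag2 had 0 in every tumour. Dntt had 0, 2 and 0 counts, Igll1 had 0 throughout, and Vpreb1 had 3, 4 and 4. The receptor partners were abundant in every tumour: Ighm was at 5663, 6282 and 5937 CPM, Cd79a at 908, 1612 and 849 CPM and Cd79b at 519, 1339 and 1521 CPM. Irf4, which acts at the light chain enhancers, was at 392, 297 and 233 CPM, and its relative Irf8 at 465, 79.0 and 221 CPM. Relative to heavy chain V counts there were 6.24, 3.95 and 1.57 light chain V counts.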

How the data were processed

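PolyA-selected RNA of sorted B220+GFP+ pBIC2 lymphoma cells was sequenced as single reads of 50 nt in 3 libraries, per the labels. The authors deposited raw gene counts. Per the submitters' processing notes, reads were checked with FastQC, aligned to mm10 with STAR 2.5.2b and counted with featureCounts 1.6.0. The sources used here give neither the annotation release and strand setting nor the handling of reads that fit several genes. Tumour numbers follow accession order and are names only.

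V, J and constant rows were taken by gene name. Shares have 95% Wilson intervals, and CPM used TMM factors from edgeR 4.0.16 (R 4.3.3), with DESeq2 1.42.0 size factors as an alternative. Positions, exon lengths, identities (global alignment, Biopython 1.88) and windows of 50 bases came from GENCODE M21. Recombination signals were not analysed here. Other steps ran in Python 3.11.15 with SciPy 1.17.1, pandas 2.3.3, matplotlib 3.10.9 and NumPy 2.4.6. The fold calls were tested on simulated counts, and the effective number and rarefaction on small made-up examples. The remaining steps had no such test. Named segments were the leading segment, those with at least 1%, the 5 highest minor segments of each tumour, lambda rows and the highest of each family with at least 10 counts. Members and lists were chosen with earlier results of these data known. Igkv4-57-1, Igkv4-58, Igkv4-59, Igkv4-61, Igkv4-77 and Igkv1-135 were named after their values were seen.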

Additional observations from a re-analysis of the deposited data

How the results depend on the processing

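Of 121 alternative values, 83 stayed within the spread between tumours, the counting interval or 1.5 times the count, and 38 moved past it. Leaving out 1 of 3 tumours always shifts a mean by less than the SD of the 3. The leave-out means judged by that spread were thus bound to stay, and the tally does not measure robustness for them. Igkv14-126, Iglv1 and Igkv4-91 led their tumours also without pseudogenes and per kilobase of exon. Neither alternative could have changed the leading segment. The leaders are listed as V genes, and their leads of 7.59-fold or more far exceed the differences in exon length. For the moved values the cause is in the construction of each alternative (other rows, denominators or thresholds), and values are given in the order of tumours 1, 2 and 3. The leading share was 89.2%, 86.9% and 88.1% without pseudogenes, 89.6% and 75.5% in tumours 1 and 2 per kilobase of exon, and 89.2% and 89.3% in tumours 1 and 3 for the whole family of the leading segment. The kappa share was 90.5%, 24.8% and 83.5% by constant genes, 92.9%, 23.7% and 86.9% over V, J and constant rows, and 98.9%, 28.6% and 96.6% for Igkc against Iglc1 alone. In tumour 2 it was 11.3% without pseudogenes and 22.9% per kilobase.

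The effective number by the inverse Simpson index was 1.41 in the mean, 1.66 in tumour 2 and 1.32 in tumour 3. By the exponential of the Shannon entropy, the effective number without pseudogenes was 2.30 in tumour 2. By the same measure it was 18.1 in the mean and 3.35, 14.4 and 36.6 by tumour without the leading segment. Without the second segment too it was 28.9 in the mean and 13.0, 34.1 and 39.7 by tumour. At least 3 counts were found for 44 segments in tumour 1, and at least 10 counts for 19, 54 and 46 segments, a mean of 39.7. From 1 CPM, 20 of 50 segments were at least 4-fold above both other tumours (9 in tumour 2 and 8 in tumour 3), against 9.36% of all genes. With tumour 1, 2 or 3 left out, 8 of 16, 12 of 14 and 13 of 14 segments were at least 4-fold higher in either remaining tumour than in the other, against 7.86%, 11.1% and 9.07% of all genes. That rule needs a gap to 1 tumour, not to both others, so these counts are not on the scale of the 11 of 19. No paired analysis was possible because the labels give 1 group. The alternatives without leading segments and with Iglc1 alone, and the marker sums without Ly6k, Cd68 or Rgs13, were chosen after seeing the data. Depth limits the rare members, since 54 of 118 never reached 10 counts.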
